A study of Mus musculus with 16 samples.

Results

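The Argonaute and Tnrc6 genes, which encode the core of the complex that silences messenger RNAs under the guidance of microRNAs, were followed in embryonic mouse adrenal glands with and without Dicer. The members were Ago1, Ago2, Ago3, Ago4, Tnrc6a, Tnrc6b and Tnrc6c. They were found by gene symbol in the annotation of the Affymetrix Mouse430_2 array, which measures each transcript with probe sets of short oligonucleotides. All 7 genes were present, with 27 of 45101 probe sets: 1 for Ago1, 4 for Ago2, 5 for Ago3, 2 for Ago4, 9 for Tnrc6a, 3 for Tnrc6b and 3 for Tnrc6c. Of these, 24 passed the filter on dim probe sets and were tested, while 1 set each of Ago3, Tnrc6a and Tnrc6c did not.

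The 16 arrays formed 4 groups of 4. The knockout (KO) embryos carried Sf1-Cre and Dicer lox/lox, at embryonic day E16.5 or E15.5. The control embryos, which the labels call WT, were littermates without Cre at the same stages. All were on a C57BL/6 background. Every parent in the matings carried at least 1 lox allele of Dicer, and the sources used here do not say which Dicer alleles the WT embryos held. Glands of 1 genotype from 1 litter were pooled, and each array took 1 pool, so the spread within a group is that between litters. Cre under Sf1 control acts in cells that use Sf1, which include the adrenal cortex, so Dicer is expected to remain in the other cell types of these whole glands. Fewer cells of a type and less RNA per cell cannot be told apart in such pools.

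MicroRNAs are cut from their precursors by Dicer and are then bound by an Argonaute protein. The Argonaute holds the microRNA and finds matching messenger RNAs, and in mammals Ago2 can itself cut a fully matched target. Tnrc6 proteins, also called GW182 proteins, bind the Argonaute through repeated tryptophan residues and bring in the deadenylase and decapping machinery that represses and degrades the target. Argonautes are known to be less stable as proteins when they carry no microRNA. The arrays measured transcripts and not proteins.

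Values below are log2 signals, on which a difference of 1 is a doubling. A difference is KO minus WT, and it passed when limma's adjusted p over all 28481 tested probe sets was under 0.05. Dicer1 itself had log2 signals of 8.42, 8.30, 8.22 and 8.09 in the 4 KO pools at E16.5, against 8.45, 8.83, 8.60 and 8.59 in WT. At E15.5 it had 8.24, 8.36, 8.002 and 8.34 in KO and 8.495, 8.63, 8.64 and 8.58 in WT. All KO pools lay below all WT pools at each stage, with differences of −0.36 (adjusted p = 0.0543) and −0.35 (adjusted p = 0.0772). Its other probe set, 1427941_at, fell at E16.5 (−0.42, adjusted p = 0.0150) and differed by −0.35 at E15.5 (adjusted p = 0.0551). The call at E16.5 was lost without KO replicate 4 (−0.36, adjusted p = 0.0579) and with the arrays of E16.5 alone (adjusted p = 0.0562). Under each of the 3 rescalings of the arrays 1460571_at fell at E16.5 (adjusted p from 0.0246 to 0.0389) and 1427941_at fell at E15.5 (from 0.0320 to 0.0382). Whether either set reads the deleted exons was not given in the sources used here.

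Across the whole array 1357 probe sets rose and 832 fell at E16.5, and 841 rose and 560 fell at E15.5. With arrays centred on their 75th percentile the splits were 690 to 1101 and 454 to 675. The array-wide mean signal ran between 6.35 and 6.37 for the 8 KO arrays, against 6.31 to 6.32 for the 8 WT arrays, an offset that bears on small differences. Markers of the labelled tissue were present: all 11 cortex markers and all 10 chromaffin markers on the array passed the filter. WT replicate 2 at E16.5 stood apart, with a 3′ minus 5′ signal of 3.15 over Gapdh and β-actin against 0.19 to 1.62 in the other 15 arrays. Where leaving it out moved a member's difference at E16.5 by more than 1.5 times, turned its sign or changed a call, the value without it is given.

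Tnrc6a rose in KO glands at both stages and had the lowest adjusted p of the family at each. At E16.5, 7 of its 8 tested probe sets rose, by 1.60-fold to 1.95-fold, and at E15.5, 5 of 8 rose. Of the other Tnrc6 genes, 1 of 3 sets of Tnrc6b and 1 of 2 of Tnrc6c rose at E16.5, and 0 of these 5 passed at E15.5 (2 at an unadjusted p under 0.05). Among the Argonautes 1 of the 4 Ago2 sets rose at both stages, while 0 of the 7 tested sets of Ago1, Ago3 and Ago4 passed at either stage. Of these 7, 1 at each stage had an unadjusted limma p under 0.05, lower in KO at E16.5 and higher in KO at E15.5. Over all members 10 of 24 tested sets rose at E16.5, where 4.76% of all tested probe sets rose, and 6 of 24 rose at E15.5, where 2.95% did. Limma called 0 member sets lower at either stage, where 2.92% of all tested probe sets fell at E16.5 and 1.97% at E15.5. At an unadjusted limma p under 0.05, 1 member set was lower at E16.5 and 0 at E15.5. In either direction 13 of 24 member sets had such a p at E16.5 and 14 at E15.5. Of all 28481 tested sets 5958 had one at E16.5 and 4976 at E15.5. Every KO pool lay above every WT pool in 8 of the 24 sets at E16.5 and 9 of 24 at E15.5, against 8.72% and 8.61% of all tested sets. With arrays weighted by their spread 14 member sets rose and 1 fell at E16.5, where 5350 of all 28481 sets rose and 2985 fell. Sets annotated to 1 gene were read from the same pools and are not replicates of each other. Without Tnrc6a the counts of sets that rose in the main fit were 3 of 16 at E16.5 and 1 of 16 at E15.5.

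**Figure D1:**
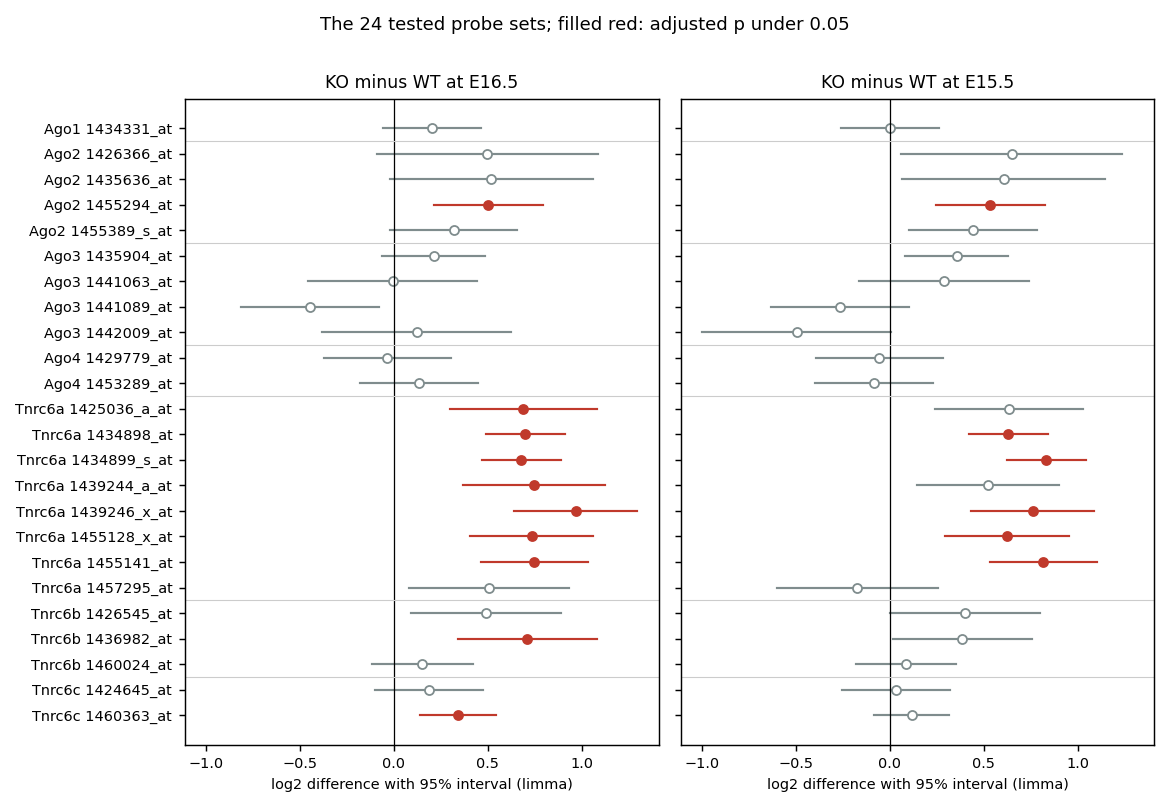
KO minus WT log2 differences of the 24 tested member probe sets with 95% intervals from limma, at E16.5 on the left and E15.5 on the right; filled red points passed at an adjusted p under 0.05. All 8 Tnrc6a intervals lie above 0 at E16.5 and all but that of 1457295_at do at E15.5, while the Ago1 and Ago4 intervals include 0.

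The sequences before the transcription starts of the Tnrc6 genes are shown to describe these paralogues. No difference in the KO effect between the paralogues was tested. Each run is the 250 bases before a start, read from the RefSeq promoter table (GRCm38.p6), 5′ to 3′ on the strand of the gene. Capitals mark the GC box GGGCGG or the CCAAT box CCAAT on either strand, which share no position in these runs.
Tnrc6a: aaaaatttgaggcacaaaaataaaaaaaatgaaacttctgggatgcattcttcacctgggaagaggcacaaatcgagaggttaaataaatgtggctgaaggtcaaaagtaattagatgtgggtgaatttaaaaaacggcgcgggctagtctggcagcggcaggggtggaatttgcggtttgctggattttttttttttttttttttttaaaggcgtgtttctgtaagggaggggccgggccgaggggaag
Tnrc6b: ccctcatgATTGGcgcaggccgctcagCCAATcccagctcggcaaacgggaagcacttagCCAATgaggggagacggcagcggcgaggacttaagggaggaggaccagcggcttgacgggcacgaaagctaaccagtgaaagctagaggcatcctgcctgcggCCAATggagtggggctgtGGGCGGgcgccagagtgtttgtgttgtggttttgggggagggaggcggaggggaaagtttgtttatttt
Tnrc6c: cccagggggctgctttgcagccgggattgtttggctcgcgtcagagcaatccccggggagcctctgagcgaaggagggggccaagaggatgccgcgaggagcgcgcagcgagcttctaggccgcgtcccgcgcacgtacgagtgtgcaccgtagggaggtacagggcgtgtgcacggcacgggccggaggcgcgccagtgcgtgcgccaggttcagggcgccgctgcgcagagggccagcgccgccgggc
The runs lie at chr7:123123635-123123884 (plus strand), chr15:80711063-80711312 (plus strand) and chr11:117654039-117654288 (plus strand), and Tnrc6b has a second start whose run is not printed. The Tnrc6a run has 42.4% G and C and 9 CpG pairs, with no GC box, CCAAT box or TATAAA. The Tnrc6b run has 14 CpG pairs, 1 GC box and 4 CCAAT boxes, while the run before its second start, at chr15:80798360-80798609, has 8 CpG pairs and none of the 3 motifs. The Tnrc6c run has 72.4% G and C and 31 CpG pairs, and none of these letters. Of all 32851 promoter runs of this length from RefSeq, 32.7% hold a GC box, 33.8% a CCAAT box and 12.4% TATAAA, and the median run holds 6 CpG pairs. The letters are a description of these windows, and nothing about the binding of a factor was measured.

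Tnrc6a encodes the founding GW182 protein, the scaffold between Argonaute and the deadenylases. Its probe set 1434899_s_at had 10.37, 10.24, 10.44 and 10.24 in KO pools at E16.5, against 9.67, 9.65, 9.64 and 9.61 in WT pools. At E15.5 the same set had 10.42, 10.61, 10.55 and 10.66 in KO and 9.74, 9.95, 9.71 and 9.51 in WT. Every KO pool was above every WT pool at both stages, and the WT pools at E16.5 lay within a narrow band. The differences were 0.68 (SE 0.10, adjusted p = 0.000431) at E16.5 and 0.83 (SE 0.10, adjusted p = 0.000115) at E15.5, which are 1.60-fold and 1.78-fold.

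The Tnrc6a set 1434898_at, annotated to the same source sequence, had 9.72, 9.59, 9.77 and 9.65 in KO at E16.5 and 8.78, 9.15, 8.89 and 9.12 in WT. At E15.5 it had 9.89, 9.74, 9.84 and 9.87 in KO and 9.29, 9.25, 9.06 and 9.21 in WT. Again no KO pool overlapped a WT pool, and the changes were 0.70 (adjusted p = 0.000329) and 0.63 (adjusted p = 0.00121). The third set on that sequence, 1455141_at, rose by 0.75 at E16.5 (adjusted p = 0.00258) and 0.82 at E15.5 (adjusted p = 0.00181), with 11.01 ± 0.16 in KO against 10.26 ± 0.22 in WT at E16.5 (SD, n = 4 each) and 11.11 ± 0.06 against 10.29 ± 0.25 at E15.5.

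The largest difference of any member set was that of 1439246_x_at of Tnrc6a at E16.5. It had 7.71, 7.22, 7.37 and 7.30 in KO pools and 6.16, 6.92, 6.35 and 6.31 in WT pools, a rise of 0.97 (SE 0.15, adjusted p = 0.00101). At E15.5 it rose by 0.76 (adjusted p = 0.00827), with pools at 7.05 to 7.35 in KO against 6.38 to 6.72 in WT. The ending _x_at means that some probes of the set can bind other transcripts. The WT pool nearest to the KO pools at E16.5 was replicate 2, the array with the high 3′ minus 5′ signal, and without it the rise was 1.13 (adjusted p = 7.86e-05). The calls of 1434898_at, 1434899_s_at, 1455141_at and 1439246_x_at held at both stages with any single array left out and under each other alternative that tested them.

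The set 1455128_x_at rose by 0.73 at E16.5 (adjusted p = 0.00782), with KO pools at 9.82 to 10.15 and WT pools at 9.002 to 9.60. At E15.5 it rose by 0.63 (adjusted p = 0.0277), with 9.97 to 10.57 in KO and 9.42 to 9.79 in WT. That call at E15.5 was lost without any 1 of WT replicates 1, 2 and 3 or KO replicates 2 and 3 (differences of 0.49 to 0.63, adjusted p from 0.0562 to 0.0868). It was also lost with that stage alone (adjusted p = 0.0508) and with the offset between genotypes allowed for (0.0611). These Tnrc6a groups did not overlap at either stage.

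Tnrc6a sets 1425036_a_at and 1439244_a_at rose at E16.5 and missed the threshold at E15.5 in the fit over all arrays. The set 1439244_a_at, the brightest of the gene, had 12.26, 11.61, 11.93 and 11.84 in KO and 10.65, 11.73, 11.18 and 11.09 in WT at E16.5, so that WT replicate 2 lay among the KO pools. It rose by 0.75 there (adjusted p = 0.0171), by 0.93 without WT replicate 2 (adjusted p = 0.00116) and by 0.63 without KO replicate 1, which ended the call (adjusted p = 0.0588). At E15.5 its KO pools at 11.66 to 11.87 all lay above its WT pools at 11.13 to 11.33, a difference of 0.52 (adjusted p = 0.119, and 0.0344 in the fit without WT replicate 2 of E16.5). In fits of 1 stage alone the call was lost at E16.5 (adjusted p = 0.113) and made at E15.5 (0.0144), and weighting the arrays also made it at E15.5 (0.0252).

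For 1425036_a_at of Tnrc6a the rise at E16.5 was 0.69 (adjusted p = 0.0315), with 10.23 to 10.89 in KO and 9.43 to 10.27 in WT, where replicate 2 was the highest. The call was lost without any 1 of WT replicates 1, 3 and 4 or KO replicates 1, 3 and 4 (differences of 0.56 to 0.73, adjusted p from 0.0540 to 0.101), under quantile or 75th percentile scaling (0.0720 and 0.0649) and with that stage alone (0.106). Without WT replicate 2 the rise was 0.85 (adjusted p = 0.00666). At E15.5 its difference was 0.63 (adjusted p = 0.0632), which passed without KO replicate 1 (0.74, adjusted p = 0.0476) or without WT replicate 2 of E16.5 (adjusted p = 0.0279), as it did with that stage alone (0.0436) and with weighted arrays (0.0153).

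The last Tnrc6a sets were dim, and 1 of them was tested. The set 1457295_at differed by 0.51 at E16.5 (adjusted p = 0.153) and by −0.17 at E15.5 (adjusted p = 0.748). It had 6.201, 5.75, 6.76 and 6.24 in KO at E16.5 and 5.24, 6.15, 5.78 and 5.76 in WT, so the groups overlapped. With arrays weighted it rose at E16.5 (0.71, adjusted p = 0.00164). The set 1439245_at was above the 40th percentile on 0 of 16 arrays and was not tested; it lay at 4.59 to 4.74 in KO, above the 4.47 to 4.56 of WT, at E16.5, and at 4.38 to 4.65 in KO and 4.11 to 4.75 in WT, which overlap, at E15.5. It is annotated to the same source sequence as 1439244_a_at and 1439246_x_at, and which transcript or exon each set reads was not given in the sources used here.

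**Figure D2:**
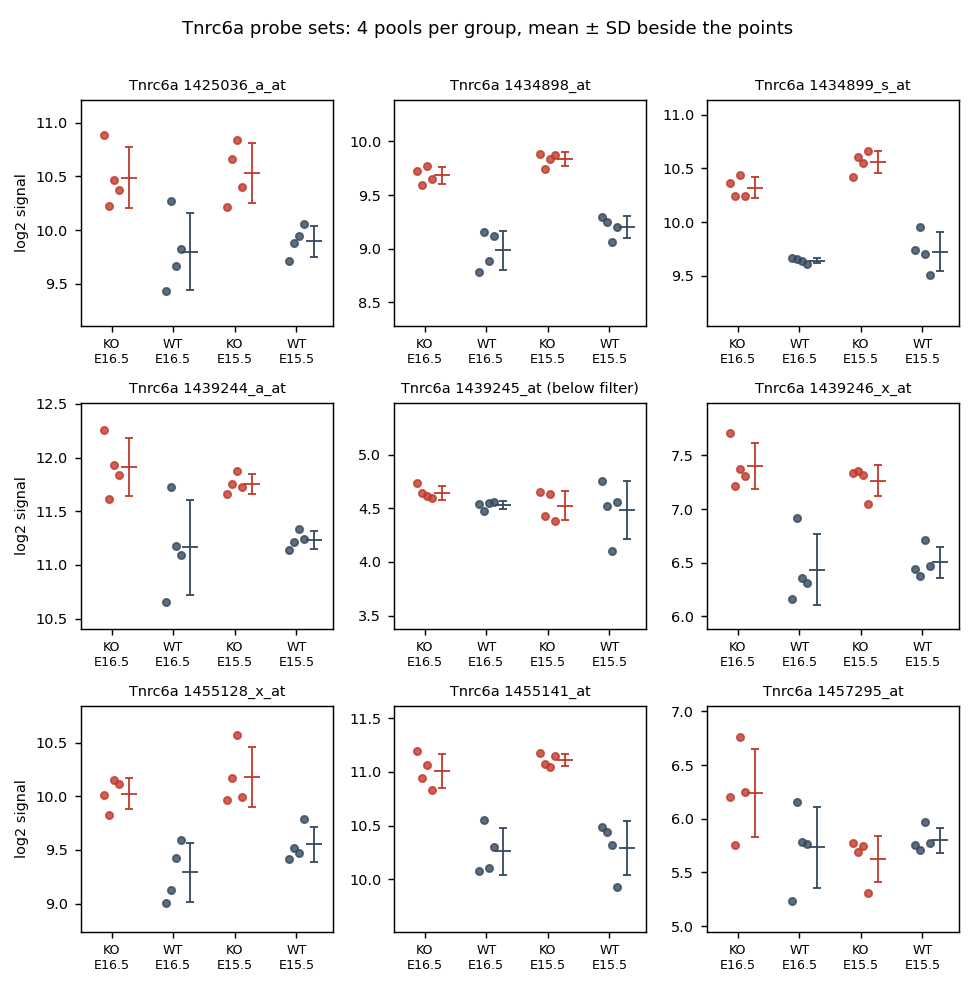
Log2 signal of the 9 Tnrc6a probe sets, 1 panel per set, each with its own axis of the same length; points are the 4 pools of a group in replicate order and bars are the mean ± SD. In 5 of the panels (1434898_at, 1434899_s_at, 1439246_x_at, 1455128_x_at and 1455141_at) the red KO pools lie above all WT pools of the same stage at both stages.

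Tnrc6b and Tnrc6c encode the other GW182 paralogues, with the same role in bringing deadenylases to targets. The Tnrc6b set 1436982_at had 10.53, 9.89, 10.68 and 10.33 in KO pools at E16.5 and 9.31, 9.41, 9.93 and 9.94 in WT pools. KO replicate 2 lay below WT replicates 3 and 4, and the other KO pools lay above all WT pools. The set rose by 0.71 (SE 0.17, adjusted p = 0.0196), a call lost without WT replicate 1 or KO replicate 1 or 3 (differences of 0.60 to 0.65, adjusted p from 0.0604 to 0.0745) or with the arrays of E16.5 alone (adjusted p = 0.109).

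At E15.5 the KO pools of 1436982_at lay at 10.16 to 10.37, above the WT pools at 9.75 to 10.10, with a difference of 0.39 (adjusted p = 0.257). The Tnrc6b set 1426545_at differed by 0.49 at E16.5 (adjusted p = 0.136) and 0.40 at E15.5 (adjusted p = 0.285), and 1460024_at by 0.15 and 0.09 (adjusted p = 0.566 and 0.806). With arrays weighted 1426545_at rose at E16.5 (0.39, adjusted p = 0.0255). All 6 Tnrc6b differences were above 0, and without weights 1 of them passed.

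For Tnrc6c, the set 1460363_at had 8.85, 8.98, 8.86 and 8.74 in KO pools at E16.5, all above the 8.34, 8.61, 8.70 and 8.40 of WT pools. The rise was 0.34 (SE 0.09, adjusted p = 0.0365), the smallest among the member sets that passed. It was lost without any 1 of WT replicates 1 and 4 or KO replicates 1, 2 and 3 (differences of 0.28 to 0.34, adjusted p from 0.0764 to 0.106), with any rescaling of the arrays (adjusted p from 0.0610 to 0.190), with the offset between genotypes allowed for (0.0825) and with that stage alone (0.157). With arrays weighted the difference was 0.17 (adjusted p = 0.0775). At E15.5 the pools overlapped, at 8.64 to 8.78 in KO and 8.54 to 8.68 in WT (0.12, adjusted p = 0.597).

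The brighter Tnrc6c set 1424645_at, annotated to the same source sequence, differed by 0.18 at E16.5 (95% interval −0.10 to 0.47) and by 0.03 at E15.5 (95% interval −0.25 to 0.32), neither of which passed (adjusted p = 0.500 and 0.941). At E16.5 leaving out 1 array gave 0.03 to 0.32, the highest without WT replicate 2 (adjusted p = 0.106), and weighting the arrays called it higher (0.21, adjusted p = 0.0474). Its sign at E15.5 turned with the scaling, to −0.05 under quantile normalization and −0.04 when 75th percentiles were matched. The dim Tnrc6c set 1440997_at passed the 40th percentile on 2 of 16 arrays and was not tested. Its pools did not overlap at either stage, with 4.64 to 5.32 in KO against 4.12 to 4.51 in WT at E16.5 and 4.83 to 5.24 against 4.05 to 4.47 at E15.5. Among all probe sets below the filter 14.5% at E16.5 and 17.1% at E15.5 had every KO array above every WT array.

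**Figure D3:**
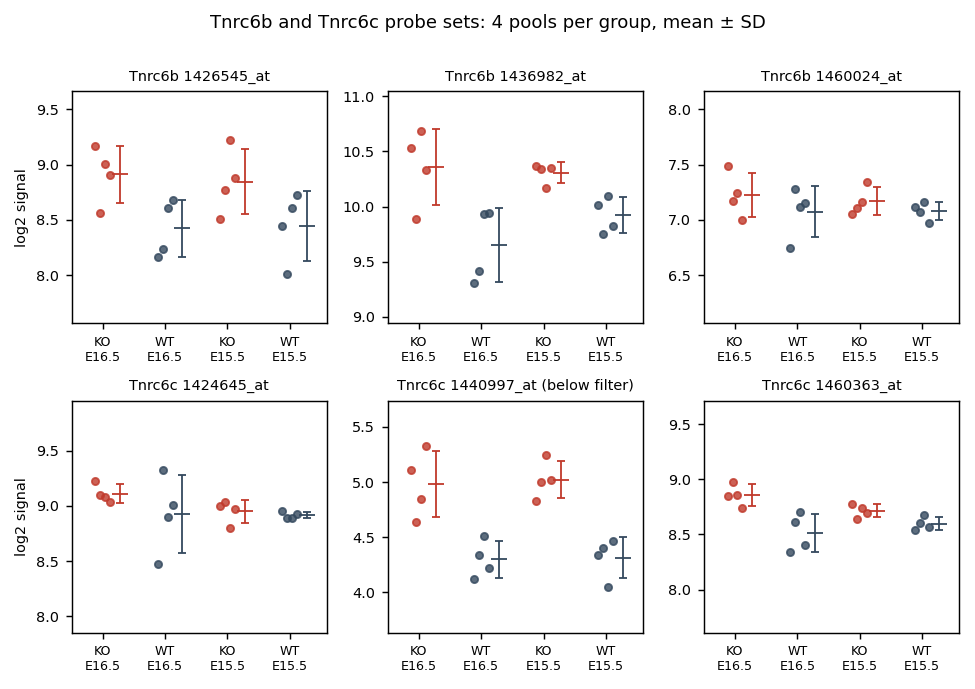
Log2 signal of the 3 Tnrc6b and 3 Tnrc6c probe sets, 1 panel per set, each with its own axis of the same length; points are the 4 pools of a group and bars the mean ± SD. KO pools lie above all WT pools at E16.5 for Tnrc6c 1460363_at and 1440997_at, and at E15.5 for Tnrc6b 1436982_at and Tnrc6c 1440997_at.

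Ago2, the mammalian Argonaute that can slice a target, had positive differences in all 4 of its sets at both stages, from 1.25-fold to 1.43-fold at E16.5 and from 1.36-fold to 1.57-fold at E15.5. The set 1455294_at had 8.88, 8.71, 8.78 and 8.61 in KO pools at E16.5 and 8.001, 8.16, 8.13 and 8.68 in WT pools. At E15.5 it had 8.90, 9.03, 9.16 and 8.98 in KO and 8.44, 8.27, 8.501 and 8.71 in WT. The groups did not overlap at E15.5, and at E16.5 WT replicate 4 reached above the lowest KO pool. The rises were 0.50 (SE 0.14, adjusted p = 0.0335) and 0.54 (SE 0.14, adjusted p = 0.0326).

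These Ago2 calls were close to the threshold. At E16.5 the call was lost without any 1 of replicates 1, 2 and 3 of either genotype (differences of 0.42 to 0.51, adjusted p from 0.0600 to 0.0987). Without WT replicate 2 the difference there was 0.48 (adjusted p = 0.0609). At E15.5 it was lost without WT replicate 1, 2 or 3 or KO replicate 2, 3 or 4 (0.47 to 0.55, adjusted p from 0.0665 to 0.108). Each rescaling of the arrays also ended the call at E16.5 (adjusted p from 0.0522 to 0.0716). At E15.5 quantile and 75th percentile scaling ended it (adjusted p = 0.0529 and 0.0595). The call was lost at both stages with the offset between genotypes allowed for (0.0573 at E16.5 and 0.0809 at E15.5), and at E16.5 with that stage alone (0.118).

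The other Ago2 sets had differences of like size and a wider spread. The set 1435636_at had 8.83, 8.57, 8.72 and 8.79 in KO at E16.5, all above the 8.25, 7.97, 8.41 and 8.20 of WT, a difference of 0.52 (adjusted p = 0.264). At E15.5 its WT replicate 4 stood at 9.34 and the other WT pools at 8.03 to 8.47, with KO pools at 8.76 to 9.74; the difference of 0.61 (adjusted p = 0.219) was 0.89 without that WT pool (adjusted p = 0.0223).

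Ago2 set 1426366_at had 9.16 to 9.51 in KO against 8.69 to 9.08 in WT at E16.5, without overlap (0.50, adjusted p = 0.341). At E15.5 KO replicate 1 stood at 8.36 and the other KO pools at 9.48 to 9.96, with WT pools at 8.25 to 9.15, and the difference of 0.65 (adjusted p = 0.228) became 0.99 without that KO pool (adjusted p = 0.0129). The set 1455389_s_at differed by 0.32 at E16.5 (adjusted p = 0.280) and 0.44 at E15.5 (adjusted p = 0.142), and by 0.60 at E15.5 without WT replicate 4 (adjusted p = 0.0316). With arrays weighted it rose at E16.5 (0.39, adjusted p = 0.00757) and at E15.5 (0.49, adjusted p = 0.0349).

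Ago1, Ago3 and Ago4 are neighbours in the mouse gene annotation, in the order Ago3, Ago1, Ago4 on chromosome 4, and Ago2 lies apart on chromosome 15. They bind microRNAs as Ago2 does; in mammals Ago1 and Ago4 are not known as efficient slicers. The single Ago1 set, 1434331_at, had 9.62, 9.56, 9.37 and 9.47 in KO pools at E16.5 and 9.16, 9.62, 9.33 and 9.10 in WT pools. At E15.5 it had 9.40, 9.38, 9.52 and 9.26 in KO and 9.43, 9.16, 9.38 and 9.60 in WT. The groups overlapped at both stages, and the differences were 0.20 (95% interval −0.06 to 0.46, adjusted p = 0.388) and −0.00063 (95% interval −0.26 to 0.26, adjusted p = 0.999). Without WT replicate 2 the difference at E16.5 was 0.31 (adjusted p = 0.111). The interval at E15.5 leaves out differences as large as those measured for the Tnrc6a sets that rose at that stage.

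Ago4 set 1453289_at differed by 0.13 (95% interval −0.18 to 0.45) at E16.5 and −0.08 (95% interval −0.40 to 0.23) at E15.5, and by 0.06 at E16.5 without WT replicate 2. The other Ago4 set, 1429779_at, had 6.29, 6.10, 6.59 and 6.37 in KO pools at E16.5 and 6.01, 6.27, 6.40 and 6.81 in WT pools, and differed by −0.03 there (−0.07 without WT replicate 2) and by −0.05 at E15.5. KO and WT pools overlapped in both sets at both stages, and adjusted p ran from 0.698 to 0.943.

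The Ago3 sets disagreed in sign. The set 1441089_at had 5.27, 5.33, 5.25 and 5.30 in KO pools at E16.5, all below the 5.53, 6.43, 5.64 and 5.35 of WT pools, and at E15.5 the KO pools at 5.30 to 5.48 lay below the WT pools at 5.48 to 5.86. The differences were −0.45 (adjusted p = 0.138) and −0.27 (adjusted p = 0.484), and −0.22 at E16.5 without WT replicate 2, which stood at 6.43 (adjusted p = 0.223). With arrays weighted this set fell at E16.5 (−0.36, adjusted p = 0.00441) and 1435904_at of Ago3 rose (0.25, adjusted p = 0.0379). All KO arrays were below all WT arrays in 4.86% of tested probe sets at E16.5 and 4.8% at E15.5. In the other direction 1435904_at of Ago3 differed by 0.21 (adjusted p = 0.391) and 0.36 (adjusted p = 0.143).

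Ago3 set 1441063_at, the brightest of the gene, differed by −0.01 at E16.5 (0.12 without WT replicate 2) and 0.29 at E15.5, and 1442009_at by 0.12 and −0.49, with adjusted p from 0.298 to 0.992. The set 1458476_at was above the 40th percentile on 0 of 16 arrays and was not tested, with 4.30 to 4.46 in KO against 3.91 to 4.29 in WT at E16.5 and 4.31 to 4.46 against 4.01 to 4.19 at E15.5. The 5 Ago3 sets are annotated to 5 source sequences. No common direction can be given for this gene from these sets.

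**Figure D4:**
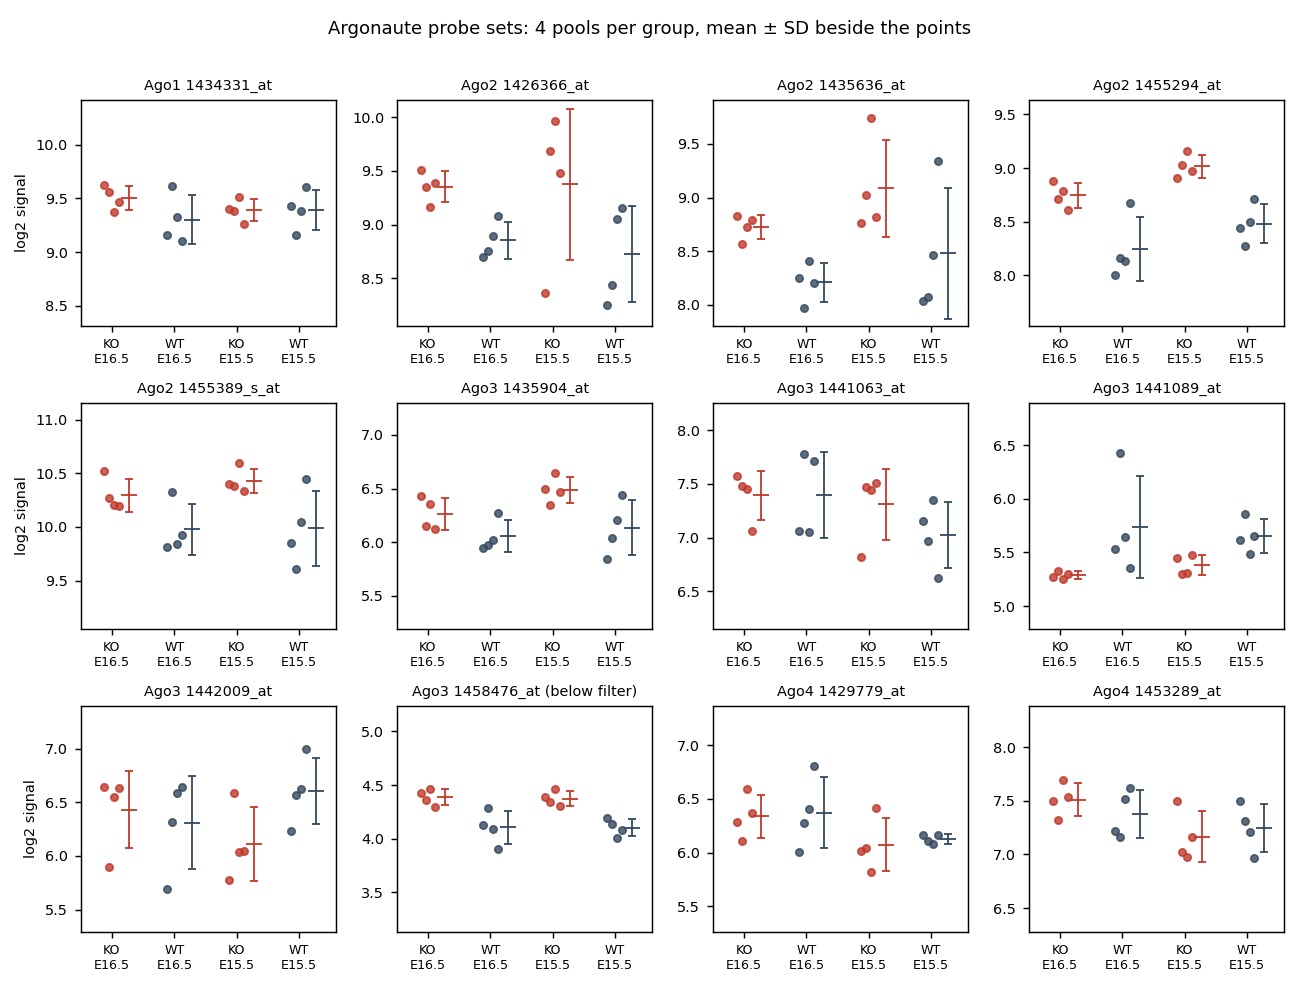
Log2 signal of the 12 Argonaute probe sets, 1 panel per set, each with its own axis of the same length; points are the 4 pools of a group and bars the mean ± SD. The Ago2 KO pools lie higher on average than WT in each panel, Ago1 and Ago4 pools overlap, and Ago3 sets differ in direction.

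The stages were compared within each genotype. Between E16.5 and E15.5, 0 of 24 member sets passed in limma in WT and 0 of 24 in KO. Of all tested sets 0.00702% passed in WT and 0.463% in KO. At an unadjusted limma p under 0.05 there was 1 member set in WT and 3 in KO, against 1767 and 2099 of all 28481 tested sets. The KO effect at E16.5 minus that at E15.5 ranged from −0.30 to 0.68 over the member sets. For that difference 0 of 24 member sets and 0 of all 28481 sets passed. Against 500 of all 28481 sets at an unadjusted limma p under 0.05, there was 1 member set. That set was Tnrc6a 1457295_at (0.68, unadjusted p = 0.0304, adjusted p = 1.00). For 1434899_s_at of Tnrc6a the group means ran 10.56 in KO at E15.5, 10.32 in KO at E16.5, 9.73 in WT at E15.5 and 9.64 in WT at E16.5. For Ago2 1455294_at the same order held, at 9.02, 8.75, 8.48 and 8.24. In neither set did the stages within a genotype, the neighbours in this order at each end, differ past the threshold.

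The partners of the complex were followed from lists of other genes, with 1 probe set per gene, where 5.79% of genes rose and 3.06% fell at E16.5 and 3.25% rose and 1.99% fell at E15.5. Among the deadenylases that Tnrc6 recruits and their cofactors 0 of 14 passed at either stage in limma, while 2 at E16.5 and 0 at E15.5 had an unadjusted p under 0.05, and the medians were 0.09 and 0.0049. The smallest p was that of Cnot11, a subunit of the CCR4-NOT deadenylase, which differed by 0.33 at E16.5 (adjusted p = 0.101). The median over all genes was 0.08 at E16.5 and 0.07 at E15.5.

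In the decapping and decay list 2 of 14 genes rose at E16.5, and at E15.5 limma called 0, while 4 had an unadjusted p under 0.05. The list's median was 0.26 at E16.5 and 0.20 at E15.5. Dcp1b, a cofactor of the decapping enzyme, rose by 0.31 (adjusted p = 0.0415), and Edc3, an enhancer of decapping, rose by 0.30 (adjusted p = 0.0238). Both calls were lost when the arrays were rescaled, with E16.5 alone (adjusted p = 0.156 for Dcp1b and 0.117 for Edc3), with the genotype offset allowed for and in 12 (Dcp1b) and 5 (Edc3) of the 16 fits that left out 1 array; without WT replicate 1 of E16.5 the adjusted p was 0.114 for Dcp1b and 0.0654 for Edc3. Weighting the arrays cut the Dcp1b difference to 0.13 (adjusted p = 0.156).

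Chaperones that load Argonaute gave 0 of 10 past the threshold at either stage in limma, with 0 and 1 at an unadjusted p under 0.05 at E16.5 and E15.5. Hspa4, a heat shock protein with the smallest p, differed by 0.30 at E15.5 (adjusted p = 0.226). Of the regulators of Argonaute and the proteins that bridge it to Tnrc6, 0 of 13 passed at either stage, and 0 had an unadjusted p under 0.05. The smallest p there was that of Ankrd52, a phosphatase subunit known from human cells to act on phosphorylated AGO2 (0.29 at E16.5, adjusted p = 0.650, and −0.56 at E15.5, adjusted p = 0.349). Of 6 microRNA processing genes, 1 rose at each stage: Tarbp2, the RNA-binding partner of Dicer, by 0.62 (adjusted p = 0.00355) and 0.69 (adjusted p = 0.00228). The Piwi genes, germline relatives of the Argonautes, had 3 probe sets, of which 0 passed the filter.

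**Figure D5:**
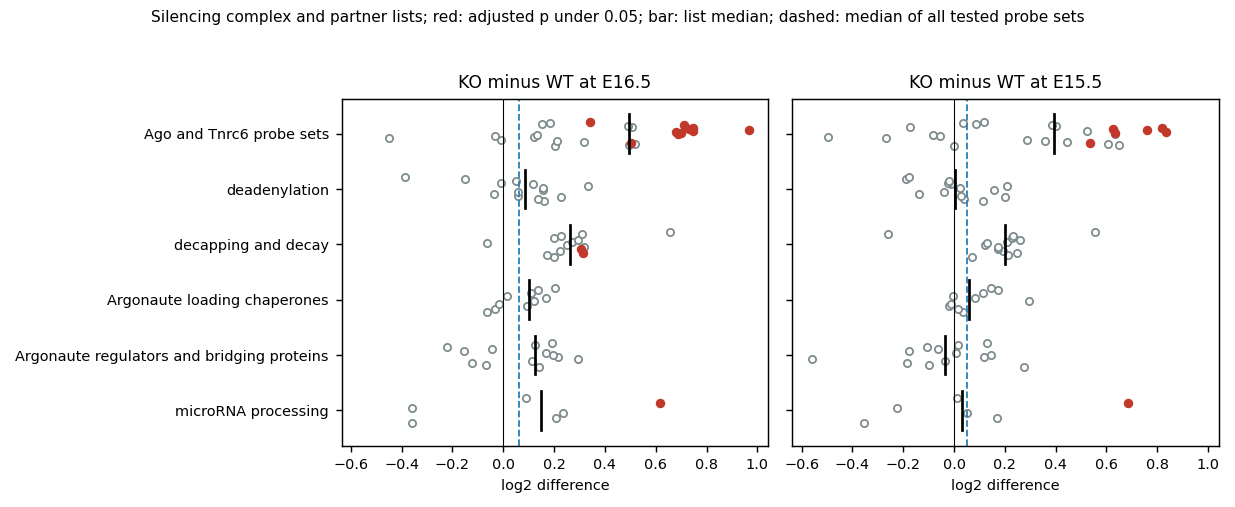
KO minus WT log2 differences of the 24 tested member sets and of the partner lists (1 probe set per gene), at E16.5 on the left and E15.5 on the right; red points passed at an adjusted p under 0.05, short bars are list medians and the dashed line is the median of all tested probe sets. The medians of the member sets were 0.49 and 0.39, against 0.06 and 0.05 over all tested sets. Of the 24 member sets 8 are of Tnrc6a and 4 of Ago2, so these are not medians over genes. Medians by gene at E16.5 and E15.5 were 0.72 and 0.63 for Tnrc6a, 0.50 and 0.57 for Ago2, and 0.49 and 0.39 for Tnrc6b. They were 0.26 and 0.08 for Tnrc6c, 0.20 and −0.00063 for Ago1, 0.06 and 0.01 for Ago3, and 0.05 and −0.07 for Ago4.

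Markers of several cell types in the glands also moved with genotype. Of 14 macrophage markers, 13 rose at E16.5 and 6 at E15.5, and all 14 passed the filter. Their summed linear signal was 11400 to 14317 in KO against 5053 to 6473 in WT at E16.5, and 7619 to 9189 against 4096 to 5103 at E15.5. Of 11 cortex markers, 5 fell at E16.5 and 3 at E15.5, with summed signals of 69788 to 88413 in KO against 97752 to 114278 in WT at E16.5, and 80224 to 95518 against 93008 to 114173 at E15.5. Of 10 chromaffin markers, 2 rose at E16.5 and 0 passed at E15.5 in limma, with 2 at an unadjusted p under 0.05. Which cells carried the higher Tnrc6a and Ago2 signal was not measured, and the part of these shifts in the result was not tested.

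For the remaining lists few calls were made. Of 9 capsule and mesenchyme markers 1 rose at E16.5, and 0 of 6 erythroid, 0 of 8 endothelial, 0 of 4 Schwann, 0 of 2 kidney and 0 of 5 liver markers passed at either stage in limma, with 0, 3, 2, 0 and 0 at an unadjusted p under 0.05 at E16.5 and 0 of each at E15.5. The summed liver signal varied widely between pools of each group, from 530 to 19668 in KO against 1950 to 13310 in WT at E16.5.

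The genes whose signals followed the members most closely over the 16 arrays were named by Pearson's r against 13643 other genes, with the brightest set of each member. For Tnrc6a they were Fyn, a Src-family kinase (r = 0.960), and Tram2 (0.950). For Tnrc6b they were Akap13, an anchoring protein of kinase A (0.925), and Slc10a7 (0.923), and for Tnrc6c Zfp27 (0.913) and the nuclear receptor coactivator Ncoa3 (0.895). For Ago2 they were Eya3, a transcriptional coactivator with phosphatase activity (0.943), and Tmem170b (0.917). Ago1 went with Gnai2, an inhibitory G-protein subunit (0.904), and Gucd1 (0.902), Ago3 with the phosphatase Ptpn21 (0.936) and Dnajc1 (0.906), and Ago4 with Pttg1ip (0.849) and Nabp1 (0.814). Without WT replicate 2 of E16.5 these values ranged from 0.810 to 0.960. The 16 arrays share groups and the offset between genotypes, so these values are a description.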

How the data were processed

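The authors deposited log2 signals of 45101 probe sets on 16 arrays. Per the submitters' processing notes RMA and limma were used; versions, and whether the arrays were normalized together, are not given in the sources used here. RMA compresses dim probe sets towards the background. The deposited log2 values were used as they are. After the 64 control probe sets were left out, a set was tested when it lay above the 40th percentile of its array on at least 4 arrays, which kept 28481 sets. Symbols came from the platform annotation, updated through gene identifiers for 34741 of 34945 sets with 1 symbol; 932 had several and 9160 none. The RefSeq promoters matched 6 of 7 members.

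Groups were fitted in 1 model over all 16 arrays with limma 3.58.1 (lmFit, eBayes, two-sided) in R 4.3.3, and p-values were adjusted by Benjamini-Hochberg over all tested sets. The fit was tested on simulated data. Precision is limited by the number of arrays, and the SE of KO effects had a median of 0.15. Partner and marker genes were taken as their brightest set, and up to 4 called genes of a partner list, or else that with the smallest p, were named, with Dicer1 always; markers are given as counts. The members and lists were chosen with earlier results of these data known. Replicate numbers are not stated to mark litters, so no block was used. The fit thus treated KO and WT pools as independent, although the WT embryos were littermates. Alternatives were other scalings, filters, weights and subsets of arrays, limma's treat with an allowance for the genotype offset, and each array left out.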

Additional observations from a re-analysis of the deposited data

Results flagged for a closer look

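The member sets form 108 groups of 4 pools, and in 5 of them 1 pool lay far from the rest by Dixon's 95% criterion, which chance alone meets in about 1 in 20 groups. For Ago3 1441063_at, KO replicate 1 at E15.5 lay at 6.81 and the other KO pools at 7.44 to 7.51. For Ago3 1442009_at, KO replicate 2 at E16.5 lay at 5.89 and the others at 6.55 to 6.65. For Tnrc6b 1436982_at, KO replicate 3 at E15.5 lay at 10.16 and the others at 10.34 to 10.37. For Tnrc6a 1439246_x_at, KO replicate 4 at E15.5 lay at 7.05 and the others at 7.32 to 7.35. For the dim Tnrc6a set 1439245_at, WT replicate 2 at E16.5 lay at 4.47 and the others at 4.54 to 4.56.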

How the results depend on the processing

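Over the 1204 refits of member sets, 1111 kept direction and side of the threshold, 58 lost a call, 18 gained one and 17, none of them called, changed sign; no called value reversed. With 1 array left out, 4 to 8 member sets passed at E15.5 and 5 to 10 at E16.5, fewest at E16.5 without KO replicate 1, and 6 without WT replicate 1 or KO replicate 3. With 1 set per gene 0 passed at E15.5 and 2 at E16.5 (Tnrc6a and Tnrc6b), and with the arrays of E16.5 alone 5 did; arrayWeights gave 15 at E16.5, of which 1, Ago3 1441089_at, was lower. Same-numbered KO and WT pools had correlated deviations above 0.1 in 5 of 8 cases (from −0.27 to 0.43), and 2 of 8 pools correlated best with their own number. These values do not settle whether the numbers mark pairs. With replicate number as a block 6 member sets passed at E16.5 and 5 at E15.5. Over all probe sets the counts at E15.5 and E16.5 were 4091 and 4988 without the filter, 539 and 1053 with the stricter filter, 800 and 1439 with 1 set per gene, and 2356 and 8335 with arrayWeights, and 870 at E15.5 with the offset allowed for and 1148 at E16.5 with that stage alone. Leaving out 1 array gave 943 to 1793 and 1380 to 2539. After quantile normalization the split at E16.5 was 930 higher to 990 lower, against 1357 to 832 as deposited. Between stages WT counts were 1 (75th percentile), 0 (stricter filter), 13 (1 set per gene) and 1387 (arrayWeights), and 0 to 12 with 1 array left out; KO counts were 67 (stricter filter) and 351 (arrayWeights), and 34 to 179. The causes were not tested, apart from the smaller number of sets or arrays that some settings hold by construction.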
